A study of Mus musculus with 6 samples.

Results

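The matrix proteins of the specific and gelatinase granules of neutrophils were followed through 10 genes: *Ltf*, *Lcn2*, *Camp*, *Ngp*, *Chil3*, *Mmp8*, *Mmp9*, *Hp*, *Lyz2* and *Pglyrp1*. They were chosen by symbol, with no limit on their values, and all 10 are among the 38739 genes of the table. The cells were peritoneal neutrophils of cGAS knockout mice (cGAS-/-) on the C57BL/6J background, so cyclic GMP-AMP synthase, a sensor of cytosolic DNA, was deleted in every sample and no wild-type sample was compared. The mice were male and 8 weeks old, and the cells were washed from the peritoneal cavity after an injection of thioglycolate. Cells were cultured for 2 h without stimulus (untreated, 3 samples) or with 500 ng/mL of *E. coli* 026:B6 LPS by the sample labels (LPS, 3 samples), whereas the methods give a lower dose. The sources do not say whether the samples came from separate animals, so p values measure only the spread between these samples.

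Neutrophils fill their granules during maturation in the bone marrow, in an order set by when each gene is transcribed. Azurophil granules with myeloperoxidase and elastase come first, specific granules with lactoferrin, cathelicidin and neutrophil gelatinase-associated lipocalin follow, and gelatinase granules with matrix metalloproteinase 9 come last. On stimulation the gelatinase granules are released more readily than the specific granules, and azurophil granules least of all. Most transcripts of granule matrix proteins are therefore made before a neutrophil leaves the marrow. *Lcn2* and *Hp* are known also as acute-phase genes that other cells induce during inflammation.

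Among the specific granule genes, *Ltf* on chromosome 9 (GRCm39, 110848339 to 110871835), *Ngp* (110248815 to 110252086) and *Camp* (109676442 to 109678685) lie in one stretch of that chromosome, and *Mmp8* lies far from them on the same chromosome (7558457 to 7568487). *Lcn2* (32274645 to 32278264) and *Mmp9* (164780439 to 164797771) are on chromosome 2. *Chil3* is on chromosome 3 (106054870 to 106074880), *Pglyrp1* on chromosome 7 (18605256 to 18624384), *Hp* on chromosome 8 (110301759 to 110305804) and *Lyz2* on chromosome 10 (117111557 to 117118346). These positions are of GENCODE M39.

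The 250 bases before the start of the canonical transcript were read from GRCm39 for *Lcn2*, the gene with the largest log2 fold change, and for *Ngp* and *Camp*, cathelicidin family neighbours whose values ran in different orders across the untreated samples. Capitals mark matches on either strand to the C/EBP motif TTNNGNAA or to the 10-base NF-κB motif. The windows are chr2:32277810-32278059 (minus strand), chr9:110248565-110248814 (plus strand) and chr9:109678686-109678935 (minus strand), each printed 5′ to 3′ along its gene.
Lcn2: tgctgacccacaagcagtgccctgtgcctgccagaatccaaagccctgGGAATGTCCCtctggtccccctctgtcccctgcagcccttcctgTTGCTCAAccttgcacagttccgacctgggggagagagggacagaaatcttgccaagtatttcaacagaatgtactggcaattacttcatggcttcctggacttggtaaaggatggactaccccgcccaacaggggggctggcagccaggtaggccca
Ngp: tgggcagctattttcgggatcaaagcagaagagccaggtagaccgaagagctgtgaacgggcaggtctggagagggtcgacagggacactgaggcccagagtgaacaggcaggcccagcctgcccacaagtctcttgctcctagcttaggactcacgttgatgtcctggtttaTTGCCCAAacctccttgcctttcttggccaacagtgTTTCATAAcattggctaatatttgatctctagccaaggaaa
Camp: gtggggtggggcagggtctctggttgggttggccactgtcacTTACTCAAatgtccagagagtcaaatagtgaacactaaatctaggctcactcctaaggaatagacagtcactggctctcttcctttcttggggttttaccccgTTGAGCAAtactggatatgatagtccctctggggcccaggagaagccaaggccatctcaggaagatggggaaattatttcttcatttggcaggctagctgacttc
The first run of capitals in the *Lcn2* sequence, 202 to 193 bases before the start, is the NF-κB match, and the second, 158 to 151 bases before it, is the C/EBP match. *Ngp* and *Camp* had 2 C/EBP matches each and 0 NF-κB matches in this window. Over all 10 genes, 7 held the C/EBP motif (*Camp*, *Chil3*, *Lcn2*, *Ltf*, *Mmp8*, *Mmp9* and *Ngp*), against 36.9% of 21770 windows of the same length before protein-coding genes. The NF-κB motif was found before *Lcn2* and *Pglyrp1*, against 7.62% of windows. All motifs were searched on both strands, also for the shares of windows. The AP-1 motif TGANTCA was found before *Mmp9* (6.17% of windows), and the PU.1 motif GAGGAAG before *Mmp8* and *Pglyrp1* (10.3% of windows). The TATA box letters TATAAA were found before *Mmp8* on the strand opposite to the gene (11.9% of windows). No match of one motif overlapped a match of another in these 10 windows.

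The values were read as TPM, a transcript abundance corrected for transcript length and library size. They appear to be means over each gene's transcripts, divided by a factor common to the sample, and are called scaled TPM here. Because the number of transcripts in that average differs between genes, levels were not ranked between genes. The table keeps no record of read numbers, so depth is unknown and no counting error can be given. Pseudogenes made up 64.7 to 70.7% of the table's total without LPS and 32.3 to 40.5% with it. Genes above 0 numbered 15419 to 15800 without LPS and 16148 to 19191 with it, which bears on genes listed at 0 only in untreated cells. Protein-coding genes made up 21.6 to 29.0% of the total without LPS and 50.6 to 60.0% with it. A second scaling to the same protein-coding sum is therefore given where it matters. *Cgas* was listed at 0.0286 to 0.307 scaled TPM over the 6 samples. A list of LPS response genes had 10 tested, of which 7 were called higher (*Cxcl3*, *Il1a*, *Ptgs2*, *Nlrp3*, *Cxcl2*, *Tnfaip3* and *Il1b*). The limits were those of the study's methods, an unadjusted limma p below 0.01 with a fold change beyond 2 on the log2 scale. The chemokine gene *Cxcl2* stood at 135, 204 and 77.7 in untreated cells and at 2381, 1392 and 1336 with LPS. Of 10 listed neutrophil markers 6 were in the table, 4 with a positive and 2 with a negative log2 fold change. *S100a8* and *S100a9* together summed to 8383 to 24556 scaled TPM in untreated cells and 14435 to 48244 with LPS. *Csf3r*, 1 of the 2 negative, stood at 251, 345 and 525 untreated and 138, 233 and 188 with LPS (log2 fold change -0.97, limma unadjusted p = 0.047, adjusted p = 0.284). *Cxcr2*, a neutrophil chemokine receptor, was called lower (log2 fold change -2.67), the macrophage gene *C1qb* higher (2.62) and the cell cycle gene *Mki67* higher (2.08). Each was the 1 gene called in its list, of 6, 14 and 8 tested, and the median log2 fold changes of these lists were 0.39, 0.28 and -0.0011, with 4 cell cycle genes positive and 4 negative. In the lists of monocyte, B cell, T and NK cell, mast cell and eosinophil, and mesothelial markers 0 were called.

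By the same limits, 0 of the 10 granule genes were called higher and 0 lower after LPS (limma), where 1.69% of the 23049 genes tested were called higher and 1.31% lower. Scaled to the same protein-coding sum, the calls over all genes moved from 389 higher and 301 lower to 221 higher (0.959%) and 516 lower (2.24%). With median centring they were 310 higher (1.34%) and 414 lower (1.8%), and in both scalings the granule genes had 0 calls. A limit of 0.05 on the unadjusted p alone, which 16.9% of all genes passed, was also passed by 0 of the 10. That count turned on the processing, since *Lcn2*, *Lyz2* and *Hp* lay just above the limit (limma unadjusted p = 0.051, 0.052 and 0.053). With only genes of a mean of 1 or more tested these 3 passed it, and over 18 alternatives 0 to 5 genes did. Nor did any reach a Benjamini-Hochberg adjusted p under 0.05, against 0.894% of genes on the higher and 0.946% on the lower side. The log2 fold changes of the 10 genes had a median of -0.29, with 5 positive and 5 negative, and ran from -1.56 to 3.02. The median over all genes tested was 0.013. The sign of the median of the 10 did not hold throughout, as it was 0.026 without LPS sample 1, and it was -0.73 with the same protein-coding sum. The interval of most of them was wide, so the test did not show that the genes stayed at one level.

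**Figure D1:**
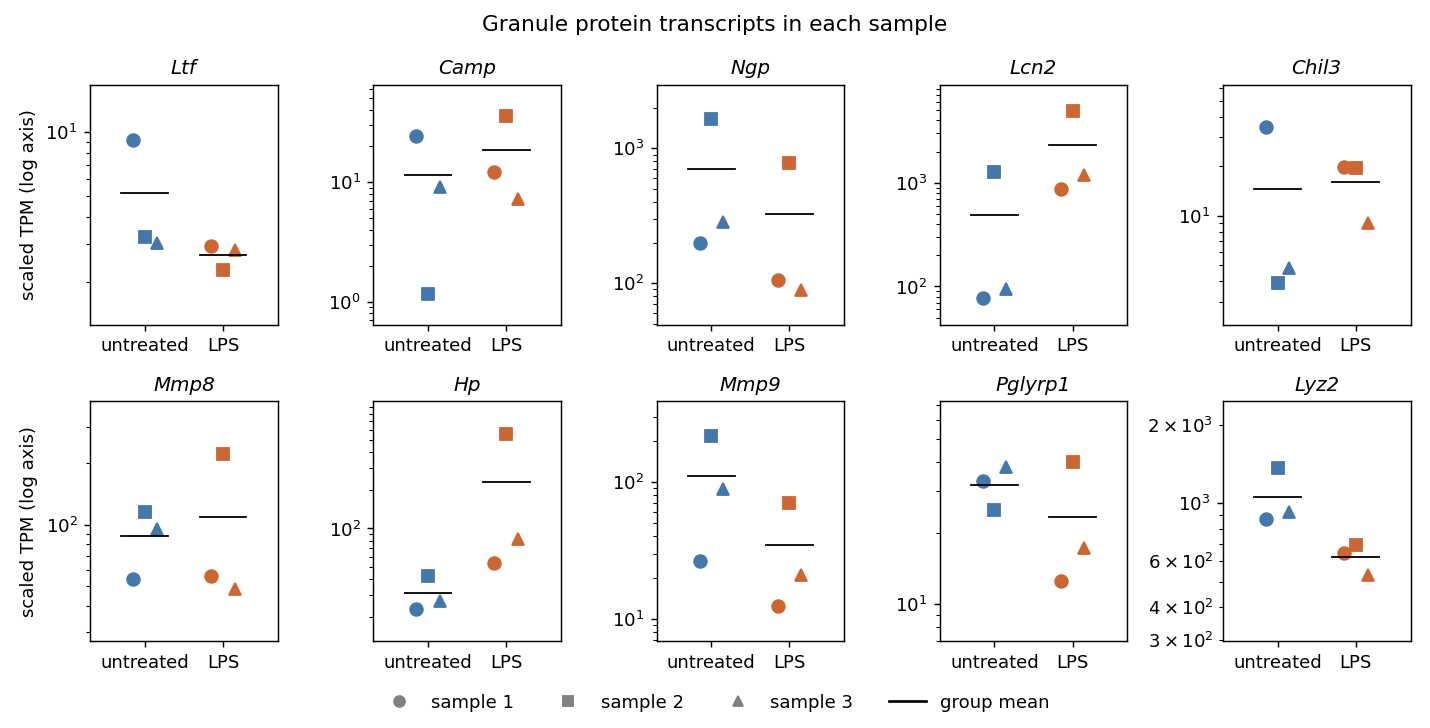
Scaled TPM (log axis) of each granule gene in the 3 untreated (blue) and 3 LPS samples (orange), with the marker shape giving the sample number and a line the group mean. *Lcn2* lay at 77.0 and 94.7 in untreated samples 1 and 3 and at 879 or more in every LPS sample, while untreated sample 2 lay at 1284.

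*Lcn2* encodes neutrophil gelatinase-associated lipocalin, which binds bacterial siderophores and so withholds iron. Its values were 77.0, 1284 and 94.7 scaled TPM in untreated cells and 879, 4887 and 1189.9 with LPS. Within each group sample 2 was far above the other samples, and the groups overlapped only because untreated sample 2 lay above LPS samples 1 and 3. The group means were 485 ± 692 and 2319 ± 2229.6 (SD, n = 3 each). On the log2(scaled TPM + 1) scale the difference was 3.02 (limma standard error 1.25, 95% confidence interval -0.017 to 6.06, unadjusted p = 0.051, adjusted p = 0.298). Without untreated sample 2 it was 4.32 (limma unadjusted p = 0.0032, adjusted p = 0.0759), which passed the limits of the study. In the other direction, it was 2.27 without LPS sample 2 (limma unadjusted p = 0.155), 2.30 without untreated sample 1 (limma unadjusted p = 0.152) and 2.45 without untreated sample 3 (limma unadjusted p = 0.147). With the same protein-coding sum the difference was 2.53 (limma unadjusted p = 0.062, adjusted p = 0.341). Over 18 alternatives the adjusted p ran from 0.0731 to 0.594.

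*Hp* encodes haptoglobin, which captures free haemoglobin and is stored in specific granules. It was listed at 23.3, 42.0 and 27.0 scaled TPM in untreated cells and at 53.0, 555 and 82.6 with LPS. Each LPS sample lay above each untreated one, and LPS sample 2 stood apart from the others. The log2 fold change was 2.14 (limma standard error 0.89, 95% interval -0.040 to 4.32, adjusted p = 0.305), and without LPS sample 2 it was 1.12 (adjusted p = 0.287). With the same protein-coding sum it was 1.66 (limma adjusted p = 0.356), under the fold limit.

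*Ngp* encodes neutrophilic granule protein, a specific granule protein with a cathelicidin-like domain. Its values were 197, 1643 and 283 scaled TPM in untreated cells and 105, 779.9 and 88.3 with LPS. Sample 2 was again far above the others of each group, and the groups overlapped through it. Its log2 fold change was -1.22 (limma standard error 1.14, 95% interval -4.00 to 1.57, adjusted p = 0.576), and it was -0.28 without untreated sample 2 and -2.22 without LPS sample 2. *Camp* encodes the precursor of the cathelicidin antimicrobial peptide and stood at 24.1, 1.16 and 9.18 in untreated cells and 12.1, 36.0 and 7.18 with LPS. Unlike *Ngp*, *Camp* was lowest in untreated sample 2, and its groups overlapped. The log2 fold change of *Camp* was 0.95 (limma standard error 1.02, 95% interval -1.53 to 3.43, adjusted p = 0.621) and turned to -0.63 without sample 2 of both groups.

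*Ltf* encodes lactoferrin, the iron-binding protein that defines specific granules. It was low, at 9.18, 3.25 and 3.04 scaled TPM in untreated cells and 2.95, 2.27 and 2.81 with LPS. Every LPS sample lay below every untreated one, but by as little as 3.04 against 2.95. The log2 fold change was -0.61 (limma standard error 0.44, 95% interval -1.69 to 0.47, adjusted p = 0.551), and -0.18 without untreated sample 1. *Chil3* encodes a chitinase-like lectin that macrophages also make. It stood at 34.6, 3.93 and 4.80 in untreated cells and 19.9, 19.5 and 9.05 with LPS, with untreated sample 1 the highest of all (log2 fold change 0.69, limma adjusted p = 0.660). Without that sample the log2 fold change of *Chil3* was 1.60 (limma unadjusted p = 0.015, adjusted p = 0.148), and without untreated sample 2 it was 0.18. *Chil4*, which is 94.3% identical to *Chil3* over 1540 bases, was listed at 0 in untreated cells and at no more than 0.433 with LPS. With so similar a pair, reads may be assigned to either gene, and how they were divided here was not tested. The locus *Gm6522* also shares a near-identical stretch of 1171 bases with *Chil3*.

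The collagenase gene *Mmp8* and the gelatinase gene *Mmp9* encode secreted proteases that cut collagens and their fragments. *Mmp8* was listed at 54.0, 115 and 94.7 scaled TPM in untreated cells and at 56.0, 221 and 48.6 with LPS. The groups overlapped, and its log2 fold change of 0.015 (limma 95% interval -1.60 to 1.63, adjusted p = 0.994) changed sign to -0.47 with the same protein-coding sum. A stretch of 163 bases is 99.4% identical between *Mmp8* and *Gm31751*. *Mmp9*, the gelatinase granule gene of the set, stood at 26.6, 217 and 88.4 in untreated cells and 12.3, 70.9 and 20.9 with LPS. LPS samples 1 and 3 lay below all untreated samples, and LPS sample 2 lay among them. The log2 fold change of *Mmp9* was -1.56 (limma standard error 0.94, 95% interval -3.86 to 0.74, adjusted p = 0.464), and -2.04 (adjusted p = 0.309) with the same protein-coding sum. It was -0.85 without untreated sample 2 and -2.34 without untreated sample 1.

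*Lyz2* and *Pglyrp1* encode antibacterial proteins of more than one granule type, lysozyme and a peptidoglycan recognition protein. *Lyz2*, which had the smallest standard error of the 10, stood at 872, 1367 and 923 scaled TPM untreated and 642, 695 and 532 with LPS. All LPS samples lay below all untreated samples. Its log2 fold change was -0.74 (limma standard error 0.30, 95% interval -1.48 to 0.0071, unadjusted p = 0.052, adjusted p = 0.300), and -1.23 (unadjusted p = 0.0028, adjusted p = 0.0757) with the same protein-coding sum. *Lyz1*, 95.5% identical to *Lyz2* over 1272 bases, was at 3.00 to 25.8 and 8.26 to 43.5, and 385 bases are identical in *Gm67237*, so reads may have been shared, and macrophages express *Lyz2* as well. *Pglyrp1* was at 33.2, 25.1 and 37.9 untreated and at 12.5, 40.1 and 17.2 with LPS, with LPS sample 2 above all others (log2 fold change -0.59, limma adjusted p = 0.551). Without LPS sample 2 it was -1.06 (adjusted p = 0.241), and without LPS sample 1 it was -0.26.

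**Figure D2:**
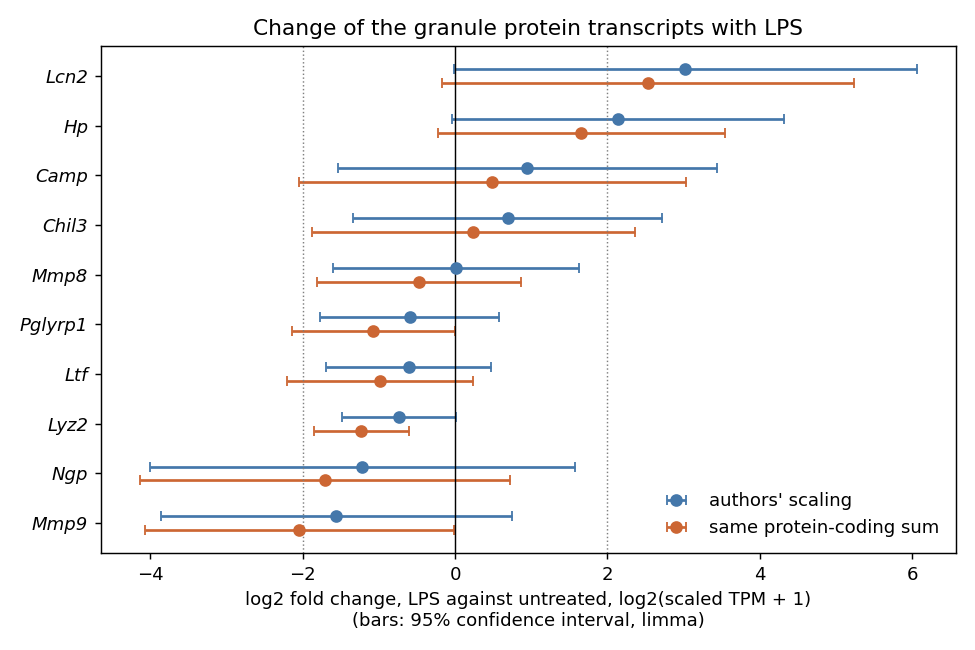
Log2 fold change of each granule gene, LPS against untreated, with its 95% confidence interval from limma, in the authors' scaling (blue) and with every sample set to the same protein-coding sum (orange); dotted lines mark the fold limit of 2 on either side. *Lcn2* and *Hp* lie farthest to the right (3.02 and 2.14) and *Mmp9* farthest to the left (-1.56), and the second scaling moves every point to the left.

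Groups that did not overlap were found for 3 of the 10 genes, against 22.9% of all genes tested and 34.3% of those with a mean value of 1 or more, as all 10 had. *Hp* was the 1 above (13.1% of all genes, 19.1% of those with that mean) and *Ltf* and *Lyz2* the 2 below (9.75% and 15.2%). In 6 of the 10 genes (*Ngp*, *Lcn2*, *Mmp8*, *Hp*, *Mmp9* and *Lyz2*) sample 2 was the highest in both groups, against 11.5% of all genes and 17.4% of those with a mean of 1 or more.

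The same samples differed in markers of cell types. *S100a8* and *S100a9*, abundant calcium-binding proteins of the neutrophil cytosol, summed to 9142, 24556 and 8383 scaled TPM in untreated cells and 16952, 48244 and 14435 with LPS. B cell markers were also present, with 7 of 9 listed genes in the table, and summed to 2078, 645 and 1544 untreated and 3157, 879 and 2516 with LPS, with sample 2 the lowest of each group. Of these 7 genes, 5 were lowest in sample 2 of both groups, a pattern whose share over all genes was not computed. Of 6 neutrophil markers, 4 were highest in sample 2 of both groups. Macrophage markers (14 of 18 in the table) summed to 266, 190.3 and 296 untreated and 449, 447 and 338 with LPS. Monocyte markers (5 of 8 in the table) summed to 118, 26.2 and 42.8 untreated and to 32.3, 27.5 and 31.3 with LPS. The sum of untreated sample 1, the highest, came mostly from *Plac8*, at 99.7. That sample was also the highest untreated one for *Camp*, *Chil3* and *Ltf*, but the share of all genes highest there was not computed. *Ccr2*, a monocyte chemokine receptor, was at 2.57 to 9.75 and 0.581 to 1.68 (log2 fold change -1.46, limma adjusted p = 0.211), and *Plac8* at 19.0 to 99.7 and 25.1 to 26.5. Of the B cell genes, *Cd79b* was at 61.3 to 175 and 17.3 to 61.4, and *Igkc*, an immunoglobulin light chain, at 364 to 960.3 and 615 to 2354. The T cell genes *Cd3d* and *Cd3e* and the mast cell genes *Kit* and *Fcer1a* lay between 0 and 8.37 in every sample. The mast cell gene *Cpa3* was higher in some samples, at 2.07, 5.22 and 37.4 untreated and 19.3, 1.10 and 40.1 with LPS. In bulk samples, fewer cells of a type and less RNA per cell cannot be told apart, and the part of cell make-up in the granule gene values was not tested.

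**Figure D3:**
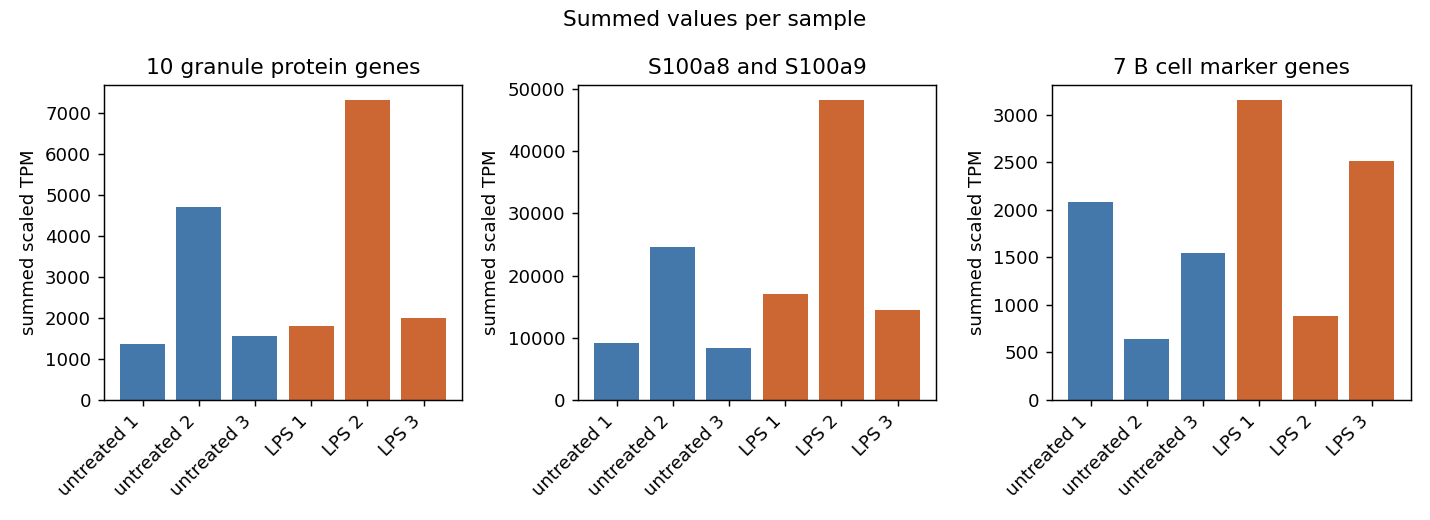
Summed scaled TPM per sample of the 10 granule genes, of *S100a8* and *S100a9*, and of 7 B cell marker genes, in untreated (blue) and LPS samples (orange). Sample 2 has the highest bar of its group for the granule genes (4699.96 and 7306) and for the S100 pair, and the lowest for the B cell markers.

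Summed over the 10 genes, the value was 1351, 4699.96 and 1565 scaled TPM in untreated cells and 1795, 7306 and 1999 with LPS. The log2 difference of the sums was 0.47, turned to -0.61 when *Lcn2* was left out, and was -0.026 with the same protein-coding sum. The composition of the sum does not depend on how a sample is scaled. *Lcn2* took 5.70, 27.3 and 6.05% of the sum in untreated cells and 49.0, 66.9 and 59.5% with LPS. *Lyz2* went from 64.5, 29.1 and 59.0% to 35.8, 9.51 and 26.6%, and *Ngp* from 14.6, 35.0 and 18.1% to 5.84, 10.7 and 4.42%. The shares of the groups did not overlap for 4 genes, with *Lcn2* and *Hp* above and *Ngp* and *Mmp9* below with LPS. Because the shares add up to the whole, a larger share of *Lcn2* lowers those of the others. In the sum without *Lcn2*, *Lyz2* took 68.4, 40.0 and 62.8% untreated and 70.1, 28.7 and 65.8% with LPS, and *Ngp* took 15.5, 48.1 and 19.2% and 11.4, 32.2 and 10.9%. In that sum the shares of *Hp* stayed apart (1.23 to 1.84% against 5.79 to 23.0%), and those of the other 8 genes overlapped. These shares are of transcript-averaged values and are not numbers of molecules.

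**Figure D4:**
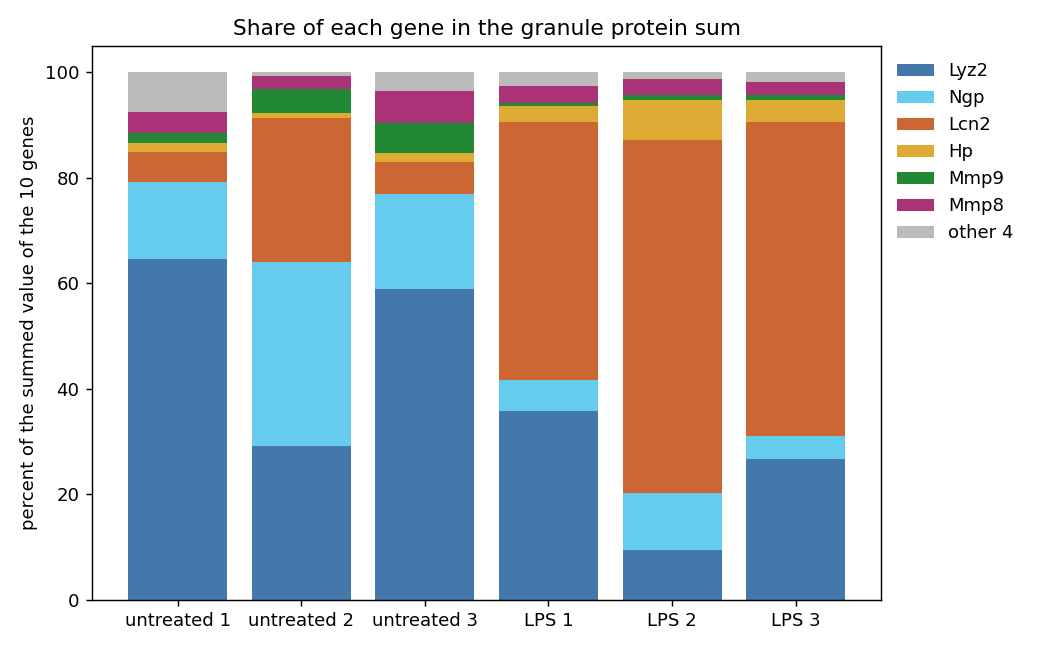
Percent of the summed value of the 10 granule genes taken by each gene, 1 bar per sample, with *Ltf*, *Camp*, *Chil3* and *Pglyrp1* joined in grey. *Lcn2* (dark orange) takes 5.70 to 27.3% of the untreated bars and 49.0 to 66.9% of the LPS bars.

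Ratios between granule genes within a sample were computed for all 45 pairs, and those named here were chosen after their values were seen. The ratio of *Lcn2* to *Ngp* was 0.390, 0.781 and 0.335 in untreated cells and 8.39, 6.27 and 13.5 with LPS. The ratio of *Lcn2* to *Mmp9* was 2.89, 5.93 and 1.07 untreated and 71.5, 68.9 and 57.0 with LPS. These groups lay 19.1-fold and 24.8-fold apart by their geometric means, the largest of the 45. The groups did not overlap in 12 of the 45 pairs, of which 6 held *Hp*, 5 held *Lcn2* and 11 held either. Of the 9 pairs with *Lcn2*, the ratios to *Ltf*, *Camp*, *Chil3* and *Hp* overlapped. Pairs that share a gene are not independent, and no share over pairs of other genes was computed, so the count of pairs is only a description. With 3 samples against 3, a two-sided exact permutation test cannot go below p = 0.1, which both ratios reached (adjusted p = 0.375 over 45 pairs). Set against *S100a8* and *S100a9* instead, *Ngp*, *Mmp8*, *Mmp9* and *Lyz2* lay lower in every LPS sample than in every untreated sample, as did 18.2% of genes with a mean of 1 or more. *S100a8* and *S100a9* had positive log2 fold changes themselves (1.11 and 0.78, limma adjusted p = 0.494 and 0.551). A larger reference lowers every value set against it, so these values do not measure a fall per neutrophil. For *Mmp8* the gap was small beside the spread within the groups. On that measure 0 granule genes lay wholly above, against 4.52% of those genes. That comparison was likewise chosen after the values were seen.

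The azurophil enzyme genes *Elane* and *Prss57* were listed at 0 in every sample, and *Mpo*, which encodes myeloperoxidase, at no more than 0.138. Of 8 tested genes of azurophil granules and neutrophil extracellular traps (10 of 11 listed were in the table), 0 were called and the median log2 fold change was 0.15. *Srgn*, which encodes the proteoglycan serglycin that binds granule proteins, rose from 515, 445 and 520.0 to 1599, 1422 and 1751 scaled TPM (log2 fold change 1.69, under the fold limit, limma adjusted p = 0.0400). *Serpinb1a*, an inhibitor of neutrophil serine proteases, was at 0.338 to 1.00 untreated and 0.948 to 5.30 with LPS (log2 fold change 1.39, adjusted p = 0.265). Of the 8 genes, 6 had a positive and 2 a negative log2 fold change. *Cd63*, 1 of the 2 negative, was at 225, 319 and 186 untreated and 78.8, 145 and 74.5 with LPS (log2 fold change -1.31, limma adjusted p = 0.157). Among 14 membrane proteins of granules and secretory vesicles 0 were called, with a median of 0.32. *Cyba*, a subunit of the NADPH oxidase, stood at 142, 258 and 251 untreated and 505, 643 and 527 with LPS (log2 fold change 1.40, limma adjusted p = 0.105). *Cd177*, a neutrophil surface protein, was at 1.47 to 34.6 untreated and 19.5 to 29.2 with LPS (adjusted p = 0.551).

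Other soluble granule proteins had 6 genes in the table, 0 of them called and all with a positive log2 fold change. *Ptx3*, the pentraxin of specific granules, was listed at 0 in untreated cells and at 2.97, 1.15 and 3.21 scaled TPM with LPS (limma adjusted p = 0.0790). *Orm1*, an acute-phase protein gene, was at 0, 9.56 and 0 untreated and 3.70, 57.6 and 5.48 with LPS, again with sample 2 the highest (adjusted p = 0.405). Of 13 tested paralogs of the granule genes, 1 was called higher. This was *Mmp13*, a collagenase gene in the same gene cluster as *Mmp8*, which rose from 4.47, 0.614 and 6.90 to 56.7, 16.0 and 44.0 (log2 fold change 3.10, limma unadjusted p = 0.0061, adjusted p = 0.105). Of 4 metalloproteinase inhibitor genes 0 were called, and *Timp2* was at 14.3 to 31.6 untreated and 20.1 to 43.6 with LPS (adjusted p = 0.577).

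The list of transcription factors of granule genes had 6 of 10 in the table and 0 called, with a median log2 fold change of 0.52. *Cebpb*, a C/EBP factor of emergency granulopoiesis, was at 600.04, 941 and 512 scaled TPM untreated and 1423, 3142 and 1723 with LPS, with every LPS sample above every untreated one (log2 fold change 1.58, limma unadjusted p = 0.0097, adjusted p = 0.128). *Myb*, a factor of early progenitors, was at 0.0206 to 0.386 untreated and 1.42 to 7.70 with LPS (log2 fold change 1.93, adjusted p = 0.130). *Cebpe*, the C/EBP factor on which specific granules depend, was on the list but not among the 6 genes found in the table by symbol.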

How the data were processed

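Neutrophil RNA of 3 untreated and 3 LPS samples was analysed, grouped by sample title. By the methods of the study, the authors used STAR (GRCm39) for alignment, Kallisto for transcript abundance and edgeR for normalization. fastp and mm10 also stand in the submitters' processing notes, and the annotation release is not given in the sources used here. The deposited table is named as normalized counts, but its values were read as TPM, averaged per gene and rescaled per sample. In untreated sample 3, 98.2% of values of genes with 1 annotated transcript had at most 6 digits, as Kallisto writes them, against 29.3% of genes with more than 3 transcripts. In the other samples these shares were 5.58 to 6.59% and 5.91 to 6.39%, so the digits bear on that reading through untreated sample 3 alone. Counts cannot be recovered, so precision rests on the spread between samples.

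Genes above 0 in at least 1 sample (23049 of 38739) were tested with limma 3.58.1 in R 4.3.3 (trend, two-sided) on log2(value + 1) with Benjamini-Hochberg adjustment over all of them. Near-identical stretches came from blastn (at least 85% identity over 150 bases) and promoters from GENCODE M39 canonical transcripts. The genes and lists were chosen with earlier results of these data known. Named were all 10 granule genes and, of each other list, the called genes or otherwise the 2 with the largest change among those with a mean of 1 or more, along with *Lyz1* and *Chil4*. *Cgas*, *Mpo*, *Cd63*, *Cpa3*, the S100 pair, *Csf3r*, near-identical loci, genes listed at 0 and *Cebpe* were named besides. Python 3.11.15 and scipy 1.17.1 were also used.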

Additional observations from a re-analysis of the deposited data

How the results depend on the processing

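No granule gene was called in either direction under 2 other pseudocounts (0.1 and 5), a filter on the mean, no filter, quantile normalization, median centring, the same protein-coding sum, limma without a trend, or either other limit (adjusted p under 0.05, or unadjusted p under 0.05 with a log2 fold change beyond 1). Median centring moved the median log2 fold change of all genes by -0.20. Without each sample in turn, 0 to 1 genes were called higher, the 1 being *Lcn2* without untreated sample 2, and 0 lower. Samples with the same number correlated best with each other in their deviations from the group means (r = 0.0935, 0.199 and 0.0835). Samples with different numbers had r from -0.131 to 0.0535. The sources do not say whether same-numbered samples were paired, and these correlations cannot decide it. A fit with a replicate block called 387 genes higher and 303 lower over the table and 1 granule gene higher, *Lcn2* (limma unadjusted p = 0.0015, adjusted p = 0.102), and 0 lower. In that fit *Mmp9* (log2 fold change -1.56, limma unadjusted p = 0.0071, adjusted p = 0.172) passed the p limit but not the fold limit. So did *Ngp* (log2 fold change -1.22, limma unadjusted p = 0.0076, adjusted p = 0.175). With the replicate block and the same protein-coding sum, an alternative chosen after seeing the data, 1 was called higher (*Lcn2*) and 1 lower (*Mmp9*, log2 fold change -2.04). Without sample 2 of both groups, also chosen after seeing the data, 1 was called higher in either scaling (*Lcn2*, log2 fold change 3.57 and 3.11) and 0 lower. The sum of the 10 genes reversed, from 0.47 to -0.61 on the log2 scale, when *Lcn2* was left out.

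Directions changed in 3 genes. *Mmp8* (0.015) became -0.19 with median centring, -0.47 with the same protein-coding sum, with or without the block, -0.45 without sample 2 of both groups and -0.91 with that omission and the same sum, and ran from -0.67 to 0.41, with -0.30 without untreated sample 1, as each sample was left out. *Camp* (0.95) became -0.63 without sample 2 of both groups and -1.06 with the same protein-coding sum as well, and ran from -0.014 (untreated sample 2 left out) to 1.76 as each sample was left out. *Chil3* (0.69) became -0.41 without sample 2 of both groups at the same protein-coding sum. The causes were not tested. The other 7 genes kept their sign over the 18 alternatives, and the median of the 10 (-0.29) ran from -1.07 (without sample 2 of both groups, same protein-coding sum) to 0.026 (without LPS sample 1). Depth is unknown, so how far it limits these values cannot be given.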
